A study of Mus musculus with 12 samples.

Results

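The genes described here are 10 receptors and bridging proteins through which macrophages take up dying cells, lipoproteins and glycoproteins: Mertk, Axl, Gas6, Mfge8, Stab1, Msr1, Cd36, Scarb1, Mrc1 and Lrp1. They were chosen by name, with earlier results of these data known. All 10 were found among the 24421 gene symbols counted by RNA-seq in macrophages derived from the marrow of C57BL/6 mice (BMDMs). The cultures spent 5 days in the macrophage growth factor M-CSF (100 ng/mL) before a treatment of 4 hours. The DMSO_Ova group had the solvent DMSO and ovalbumin (Ova), and the DMSO_IC group had DMSO and the immune complex (IC), which is ovalbumin bound by polyclonal rabbit anti-ovalbumin IgG. The IBET_Ova and IBET_IC groups had I-BET151 (iBET, a small molecule that keeps BET bromodomain proteins from binding acetylated histones) at 5.0 µM with Ova or with IC. Each group held 3 libraries, 1 from each of the mice A, B and C, so every mouse was sampled under all 4 conditions. Drug and stimulus were given together according to the labels and drug first according to the study's methods, so their order is uncertain.

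Dying cells expose phosphatidylserine, which phagocytes bind directly through receptors such as STAB1 and CD36 or indirectly through bridging proteins in plasma and tissue fluid. GAS6 links phosphatidylserine to the TAM receptor tyrosine kinases MERTK and AXL, and MFG-E8 links it to alpha-v integrins. Scavenger receptors (MSR1, CD36, SCARB1), the mannose receptor MRC1 and the large endocytic receptor LRP1 also clear modified lipoproteins, glycoproteins and protease complexes. The study asked how iBET alters macrophage responses to IC and also examined uptake that does not use Fcγ receptors, and the comparisons below give the transcript levels of these uptake genes.

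Libraries held 7549849 to 17387639 counts. The library of DMSO_Ova mouse A stood apart, since 77.4% of its counts lay on the ribosomal RNA gene Rn45s, against 1.41 to 7.83% in the other 11 libraries. It kept 1768133 other counts, while the other 11 libraries kept 7247830 to 16899110. The macrophage label fitted the markers: the summed level of 10 macrophage markers was 7156 to 9964 CPM across the 12 libraries. CPM are counts scaled to a library total that was adjusted by the trimmed mean of M-values (TMM). The TMM factor was 0.249 for the DMSO_Ova library of mouse A and 1.048 to 1.231 for the other 11. Of 29 lymphocyte, dendritic, stromal, erythroid and mast cell markers, none passed 17 counts in any library (Kdr and Pf4, which were expressed, are not among the 29). Summed neutrophil and granulocyte precursor markers ranged from 9.76 to 56.3 CPM, and none of the 5 tested was called for iBET or IC. With iBET, 3 of 10 macrophage markers were called with Ova (2 higher, 1 lower), beside 31.3% of all genes. With IC, 4 of 10 were called (3 higher, 1 lower), beside 34.8% of all genes. The dendritic cell factor Zbtb46, with at most 17 counts, was higher with Ova (log2 3.38), and Kdr was lower with Ova (-0.66) and with IC (-0.73). The part of these markers in the results below was not tested. Bulk RNA-seq cannot tell fewer cells of a type from less RNA per cell. Levels below are TMM-scaled CPM as well. Tests are edgeR quasi-likelihood fits over all 12 libraries with Benjamini-Hochberg adjustment over 11468 genes. A gene was called when its adjusted p was under 0.05.

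Under iBET, transcripts of the TAM receptor Mertk and of its ligand Gas6 rose and those of the scavenger receptor Msr1 fell, with either stimulus. The other 7 genes were not called in either drug comparison. In cells given Ova, 3 of 10 were called for iBET against DMSO (2 higher, 1 lower), where 31.3% of all genes tested were called, 17.1% higher and 14.2% lower. In cells given IC, 3 of 10 were again called (2 higher, 1 lower), against 34.8% of all genes, 19% higher and 15.8% lower. The share of these genes called was thus close to that among all genes. Their log2 fold changes had a median of 0.10 with Ova and 0.14 with IC, beside 0.019 and -0.0037 for all genes. The 3 libraries of the drug group did not overlap those of the DMSO group in CPM for 4 of 10 genes with Ova, against 45.1% of all genes, and for 4 of 10 with IC, against 48.6%.

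**Figure D1:**
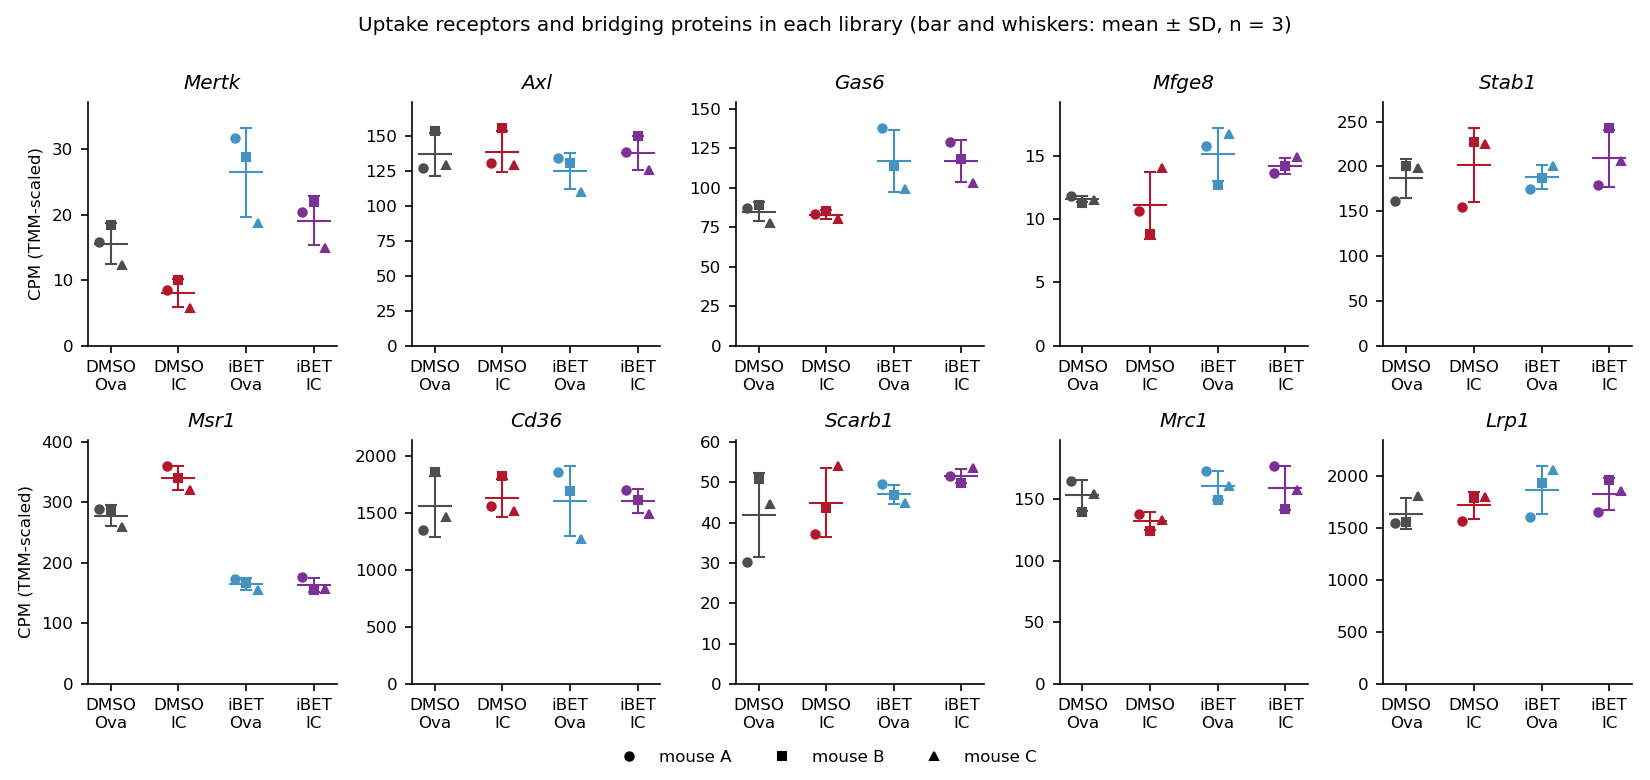
Level of each gene (TMM-scaled CPM, linear axis from 0) in the 12 libraries by group, with the mouse shown by symbol and the group mean ± SD (n = 3) as bar and whiskers. Mertk and Gas6 sat higher and Msr1 lower in both iBET groups than in the DMSO group with the same stimulus, while the libraries of Axl, Cd36, Stab1 and Lrp1 overlapped between groups.

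The genes differed widely in level. Per kilobase of exon, Cd36, the fatty acid and modified LDL receptor, was the most abundant in DMSO_Ova at 435 ± 74.8 CPM per kb (SD, n = 3), followed by Lrp1 at 92.5 ± 8.38 and Msr1 at 43.9 ± 2.71. Gas6 (33.3 ± 2.37), Axl (27.1 ± 3.03) and Mrc1 (24.0 ± 2.01 CPM per kb) came next, and here Gas6 overlapped Axl and Axl overlapped Mrc1 in their ranges over libraries. Stab1 followed at 18.2 ± 2.11 CPM per kb. Scarb1 (4.93 ± 1.24), Mertk (3.59 ± 0.710) and Mfge8 (2.46 ± 0.0501 CPM per kb) were the lowest, and Scarb1 and Mertk did not separate. The order of Cd36 first and Lrp1 next, their ranges apart from each other and from the gene below, held in all 4 groups. Gas6 passed Msr1 to rank 3 in both iBET groups (45.8 ± 7.65 against 26.0 ± 1.54 CPM per kb with Ova, 45.7 ± 5.13 against 25.6 ± 1.83 with IC). Mertk was the lowest of the 10 only in DMSO_IC, at 1.86 ± 0.502 CPM per kb, where its range overlapped that of Mfge8.

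Mertk encodes the TAM receptor that resident and M-CSF-grown macrophages use for apoptotic cells, and it lies on chromosome 2 of mm10 (chr2:128698956-128802894, plus strand). In mice A, B and C it measured 15.9, 18.5 and 12.4 CPM in DMSO_Ova. In IBET_Ova it measured 31.8, 28.9 and 18.8 CPM. The lowest IBET_Ova library, that of mouse C, was just above the highest DMSO_Ova library, that of mouse B, so the groups did not overlap. The fitted rise was 1.71-fold (log2 0.77, SE 0.25, 95% interval 0.22 to 1.32, adjusted p = 0.0354), and Mertk was higher with iBET in 3 of 3 mice. With IC, levels were 8.50, 10.0 and 5.72 CPM in DMSO_IC and 20.5, 22.0 and 14.9 CPM in IBET_IC. Every IBET_IC library lay above every DMSO_IC library. This rise was 2.38-fold (log2 1.25, SE 0.26, adjusted p = 0.00244), again in 3 of 3 mice.

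The Mertk call with Ova was lost in several fits that did not pair libraries by mouse. The DMSO_Ova library of mouse A held 31 Mertk counts, against 60 to 412 in the other 11. The call was lost without the DMSO_Ova library of mouse A (adjusted p = 0.0727) or mouse C (0.146), without the IBET_Ova library of mouse A (0.131) or mouse B (0.10), without all libraries of mouse A (0.231) or mouse B (0.136), and when the compared groups were fitted alone (0.0530). The fitted log2 difference stayed between 0.60 and 0.97 over all leave-outs. With mouse as a replicate block, the rise with Ova passed (0.74, SE 0.13, adjusted p = 7.56e-04), in a fit that called 4387 of 11468 genes. The block fit without the DMSO_Ova library of mouse A, chosen after seeing the data, gave 0.65 (adjusted p = 0.00478). The rise with IC passed the test in every leave-out fit, with adjusted p up to 0.0408.

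Mertk was also the gene with the largest difference for IC against Ova among the 10. In DMSO, the DMSO_IC libraries (5.72 to 10.0 CPM) all lay below the DMSO_Ova libraries (12.4 to 18.5 CPM). The log2 difference was -0.95 (SE 0.27, 95% interval -1.52 to -0.37), a 1.93-fold lower level seen in 3 of 3 mice, but it did not pass the test (adjusted p = 0.128). With mouse as a replicate block, the pairing that the labels give, the difference was -0.98 (SE 0.14) and passed (adjusted p = 0.00231). It also passed in the block fit without the DMSO_Ova library of mouse A, an alternative chosen after seeing the data (-1.04, adjusted p = 0.00543), and with the DESeq2 Wald test (-0.95, adjusted p = 0.0389). The block fit called 2.75% and DESeq2 called 2.37% of all genes for this comparison. With iBET, Mertk measured 26.5 ± 6.80 CPM with Ova and 19.1 ± 3.77 CPM with IC (SD, n = 3). These ranges overlapped, although Mertk was lower with IC in 3 of 3 mice (log2 -0.47, SE 0.24, adjusted p = 0.726, and 0.142 with the replicate block).

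Gas6, the bridging ligand of the TAM receptors, lies on chromosome 8 (chr8:13465374-13494490, minus strand). It measured 87.3, 89.3 and 78.0 CPM in DMSO_Ova and 138, 114 and 99.1 CPM in IBET_Ova. All 3 iBET libraries were above all 3 DMSO libraries. The rise was 1.38-fold (log2 0.46, SE 0.13, 95% interval 0.19 to 0.74, adjusted p = 0.0151). With IC, Gas6 measured 83.7, 85.4 and 80.0 CPM in DMSO_IC and 129, 118 and 103 CPM in IBET_IC, again without overlap. This rise was 1.41-fold (log2 0.49, SE 0.13, adjusted p = 0.00933). Gas6 was higher with iBET in 3 of 3 mice with each stimulus. The call with Ova was lost without the DMSO_Ova library of mouse C (adjusted p = 0.0665), without the IBET_Ova library of mouse A (0.0717), without mouse B (0.130) and with the compared groups fitted alone (0.0577). The call with IC was lost only without mouse B (0.124) among the leave-outs. These fits did not pair libraries by mouse. With mouse as a replicate block, Gas6 passed with Ova (0.45, adjusted p = 0.00311) and with IC (0.48, adjusted p = 0.00145). That fit called 4387 of 11468 genes with Ova and 4829 with IC. Exons of Gas6 overlap those of Tmem255b on the opposite strand, and since the use of strand in counting is not given in the sources used here, reads of the 2 genes may be mixed.

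Axl, the other TAM receptor, which is known for its rise in inflamed and interferon-treated phagocytes, lies on chromosome 7 (chr7:25757273-25788705, minus strand). Its libraries ranged from 127 to 154 CPM in DMSO_Ova, 109.8 to 134 in IBET_Ova, 129 to 156 in DMSO_IC and 126 to 150.2 in IBET_IC. All 4 groups overlapped. The iBET difference was -0.14 (95% interval -0.40 to 0.13, adjusted p = 0.437) with Ova and -0.0037 (-0.27 to 0.26, adjusted p = 0.986) with IC on the log2 scale. The upper bounds lay below the Mertk rises of 0.77 and 1.25. Tyro3, the remaining TAM receptor, had at most 8 counts in any library and was not tested. Pros1, which encodes the other TAM ligand, protein S, ranged from 19.8 to 27.4 CPM over the 12 libraries and was called in no comparison.

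The level of Mertk relative to Axl within each library, per kilobase of exon, is given as a description with no test, since it was computed after the values were seen. In mice A, B and C it was 14.6, 13.9 and 11.1% in DMSO_Ova and 7.52, 7.46 and 5.13% in DMSO_IC. It was 27.6, 25.7 and 19.9% in IBET_Ova and 17.1, 17.0 and 13.7% in IBET_IC. In every mouse the order of the groups was DMSO_IC, DMSO_Ova, IBET_IC and IBET_Ova, and Axl was the more abundant transcript in all 12 libraries.

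**Figure D2:**
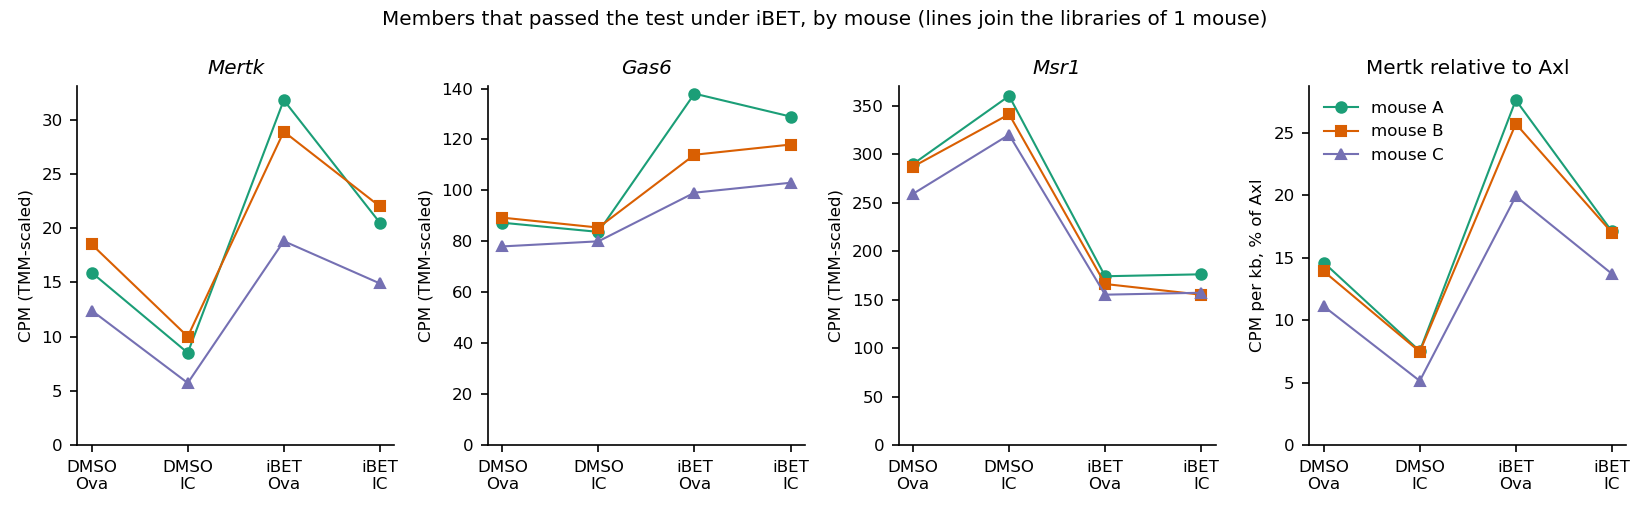
Mertk, Gas6 and Msr1 (TMM-scaled CPM) and Mertk per kilobase as a percent of Axl, with a line joining the 4 libraries of each mouse. Mertk was lower with IC than with Ova and higher with iBET than with DMSO in each mouse, Gas6 rose with iBET with either stimulus, and Msr1 fell from 320 to 360 CPM in DMSO_IC to 155 to 176 CPM in IBET_IC.

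The promoters of the TAM genes are shown because Mertk and Gas6 were called higher under iBET and Axl was not called. RefSeq promoter windows (GRCm38.p6, 250 bases before to 50 after the start) were matched for 8 of the 10 genes, Mertk, Axl, Gas6, Mfge8, Stab1, Cd36, Mrc1 and Lrp1. They were searched on both strands for the GC box (GGGCGG), the E-box (CACGTG), the TATA box (TATAAA), the CCAAT box (CCAAT), an ETS core (GGAAGT) and the AP-1 site (TGACTCA), with capitals marking every match. The windows are chr2:128698665-128698964 (plus strand) for Mertk, chr8:13494486-13494785 (minus strand) for Gas6 and chr7:25788684-25788983 (minus strand) for Axl, each printed in the direction of transcription.
Mertk: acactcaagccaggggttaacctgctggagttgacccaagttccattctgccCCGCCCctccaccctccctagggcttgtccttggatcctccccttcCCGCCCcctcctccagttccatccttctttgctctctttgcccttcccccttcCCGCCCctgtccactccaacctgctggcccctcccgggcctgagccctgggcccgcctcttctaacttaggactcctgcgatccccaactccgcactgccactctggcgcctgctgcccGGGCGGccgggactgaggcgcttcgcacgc
Gas6: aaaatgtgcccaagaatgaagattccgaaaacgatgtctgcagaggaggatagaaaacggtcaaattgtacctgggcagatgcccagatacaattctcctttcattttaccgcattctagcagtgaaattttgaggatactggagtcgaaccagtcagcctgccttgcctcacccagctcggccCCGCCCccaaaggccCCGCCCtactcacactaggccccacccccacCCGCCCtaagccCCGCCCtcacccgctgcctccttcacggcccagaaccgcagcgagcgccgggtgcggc
Axl: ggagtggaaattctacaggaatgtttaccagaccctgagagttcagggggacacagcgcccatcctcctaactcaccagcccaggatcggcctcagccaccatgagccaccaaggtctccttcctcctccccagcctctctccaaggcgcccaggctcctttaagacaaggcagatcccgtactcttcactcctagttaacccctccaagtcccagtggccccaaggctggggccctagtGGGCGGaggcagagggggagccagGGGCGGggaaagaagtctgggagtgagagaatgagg
Mertk and Gas6 each held 4 GC boxes and Axl held 2, and none of the 3 windows held another searched motif. At least 1 GC box was present in 35.6% of the 32817 promoter windows, and 4 or more in 5.48%. Mfge8 also held 4, Cd36 held 2, Mrc1 and Lrp1 held 1 each and Stab1 held 0. The GC content was 66% for Mertk, 58.3% for Gas6 and 60.3% for Axl, against a median of 52.7% over all windows, and the lowest of the 8 was Cd36 at 43%. The Cd36 window (chr5:17835847-17836146, minus strand) lies inside the annotated gene (chr5:17781690-17888801), so it covers an internal start. Msr1 and Scarb1 had no matched window. The E-box, the TATA box and the AP-1 site were found in 7.15, 13.6 and 5.2% of all windows and in none of the 8. The CCAAT box, found in 37.4% of all windows, occurred in Cd36, Mrc1 and Stab1, and the ETS core, found in 23.8%, occurred in Cd36 and Mrc1. These matches are a description of the sequence only.

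Mfge8 encodes the secreted bridge between phosphatidylserine and alpha-v integrins. It was low, with 23 to 255 counts a library. Its levels were 11.8, 11.3 and 11.5 CPM in DMSO_Ova and 15.8, 12.7 and 16.7 CPM in IBET_Ova. These groups did not overlap, but the difference did not pass the test (log2 0.39, 95% interval 0.0026 to 0.77, adjusted p = 0.118). With IC, Mfge8 measured 10.6, 8.80 and 14.0 CPM in DMSO_IC and 13.6, 14.2 and 14.9 CPM in IBET_IC. The DMSO_IC library of mouse C reached into the iBET range (log2 0.35, adjusted p = 0.134), and without that library the difference was 0.55 and was called (adjusted p = 0.0271). Mfge8 was higher with iBET in 3 of 3 mice with each stimulus.

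Stab1, a large receptor that binds phosphatidylserine and takes up secreted matrix proteins, ranged from 155 to 243 CPM over the 12 libraries. Its groups overlapped in every comparison, and the iBET difference was -0.0028 (95% interval -0.35 to 0.34) with Ova and 0.048 (-0.29 to 0.39) with IC on the log2 scale. Exons of Stab1 overlap Nt5dc2 on the opposite strand, with the same limit as for Gas6.

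Msr1 encodes the class A macrophage scavenger receptor, which binds modified LDL and bacterial surface molecules, and lies on chromosome 8 (chr8:39581685-39642673, minus strand). In mice A, B and C it measured 289.7, 287 and 259 CPM in DMSO_Ova and 174, 166 and 155 CPM in IBET_Ova. The highest iBET library lay well below the lowest DMSO library. The log2 difference was -0.75 (SE 0.096, 95% interval -0.96 to -0.54, adjusted p = 1.05e-04), a 1.68-fold lower level. With IC, Msr1 measured 359.9, 341 and 319.9 CPM in DMSO_IC and 176, 155 and 157 CPM in IBET_IC. The lowest DMSO_IC library lay far above the highest IBET_IC library. The log2 difference was -1.06 (SE 0.096, adjusted p = 6.91e-06), a 2.09-fold lower level. Msr1 was lower with iBET in 3 of 3 mice with each stimulus and was called in every alternative fit and leave-out.

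Msr1 was higher with IC than with Ova in DMSO, where the DMSO_IC libraries (319.9 to 359.9 CPM) all lay above the DMSO_Ova libraries (259 to 289.7 CPM). The log2 difference was 0.29 (SE 0.095, 95% interval 0.084 to 0.50), in 3 of 3 mice, and did not pass the test (adjusted p = 0.200). In iBET, Msr1 measured 165 ± 9.74 CPM with Ova and 163 ± 11.6 CPM with IC, and the ranges overlapped (log2 -0.022, 95% interval -0.23 to 0.18). The difference between these IC differences, the interaction, was -0.31 on the log2 scale (95% interval -0.61 to -0.021, unadjusted p = 0.0377) with the same sign in 3 of 3 mice, and it did not pass adjustment over all genes (adjusted p = 1.000).

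Cd36, which takes up oxidised LDL and long-chain fatty acids and helps bind apoptotic cells, was among the most abundant transcripts of the 10 in every library. It ranged from 1352 to 1864 CPM in DMSO_Ova, 1268 to 1864 in IBET_Ova, 1514 to 1828 in DMSO_IC and 1493 to 1700 in IBET_IC. The groups overlapped throughout. The iBET difference was 0.042 (95% interval -0.30 to 0.38) with Ova and -0.026 (-0.37 to 0.31) with IC on the log2 scale. Scarb1, the HDL receptor, ranged from 30.3 to 50.8 CPM in DMSO_Ova, with the lowest value in mouse A, and from 44.8 to 49.5 CPM in IBET_Ova. With IC it ranged from 37.1 to 54.1 CPM in DMSO_IC and from 49.9 to 53.6 CPM in IBET_IC. The DMSO groups were the more scattered, and the iBET difference was not called with Ova (0.13, 95% interval -0.24 to 0.49) or with IC (0.20, -0.16 to 0.56).

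Mrc1, the mannose receptor and a marker of alternatively activated macrophages, measured 165, 139.9 and 154 CPM in DMSO_Ova and 173, 149 and 160.4 CPM in IBET_Ova, with overlap. In DMSO_IC it measured 138, 124 and 133 CPM and in IBET_IC 177, 142 and 157 CPM. The IBET_IC libraries all lay above the DMSO_IC libraries, and the log2 difference of 0.27 (95% interval 0.037 to 0.51), in 3 of 3 mice, did not pass the test (adjusted p = 0.0692). With the replicate block it passed (0.27, SE 0.079, adjusted p = 0.0163), in a fit that called 42.1% of all genes for this comparison, and it also passed without the IBET_IC library of mouse B (0.35, adjusted p = 0.0464). Lrp1, which binds calreticulin, protease complexes and remnant lipoproteins, ranged from 1549 to 1810 CPM in DMSO_Ova, 1608 to 2057 in IBET_Ova, 1572 to 1797 in DMSO_IC and 1656 to 1959 in IBET_IC. The groups overlapped, and the iBET difference was 0.19 (95% interval -0.073 to 0.45) with Ova and 0.085 (-0.18 to 0.35) with IC.

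**Figure D3:**
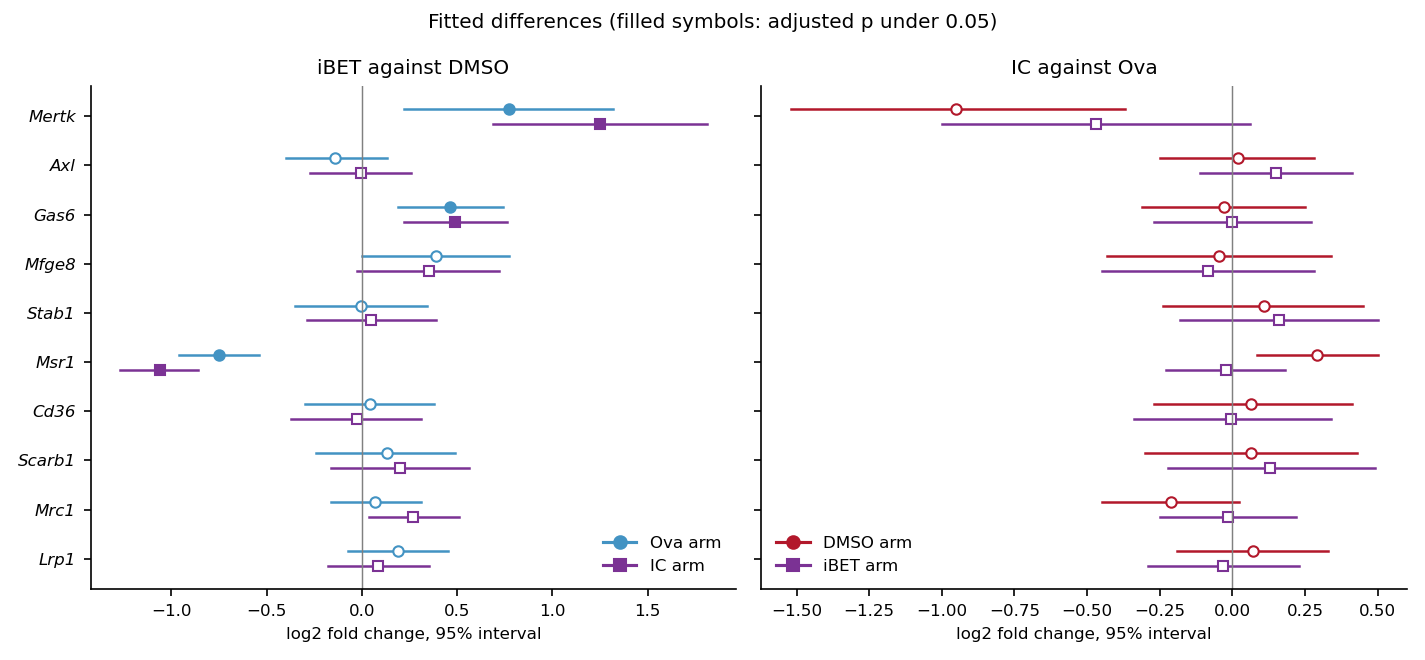
Fitted log2 fold changes with 95% intervals for iBET against DMSO (left, in the Ova and IC arms) and IC against Ova (right, in the DMSO and iBET arms), with filled symbols where the adjusted p was under 0.05. Mertk, Gas6 and Msr1 were called for iBET in both arms, and no symbol is filled for IC against Ova. These fits did not pair libraries by mouse.

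For IC against Ova, edgeR called 0 of the 10 genes in DMSO, where 1.22% of all genes were called. That fit did not pair libraries by mouse. Unadjusted p was under 0.05 for 2 (Mertk and Msr1), and DESeq2 and the edgeR fit with the replicate block each called 1 (Mertk). In iBET, edgeR called 0 of 10, against 0.349% of all genes. None of the 10 (0) reached an unadjusted p under 0.05 there, and DESeq2 called 0. For the interaction of iBET and IC, edgeR called 0 of 10, against 0% of all genes tested. Here 1 of the 10 (Msr1) and 292 of all genes had an unadjusted p under 0.05, and DESeq2 called 0 of the 10 and 4 of all genes. The Mertk interaction was 0.48 on the log2 scale (95% interval -0.30 to 1.26, adjusted p = 1.000) and was above 0 in 3 of 3 mice (0.27, 0.48 and 0.75). With the replicate block it was 0.52 (95% interval 0.12 to 0.92, unadjusted p = 0.0149), which did not pass adjustment over all genes either (adjusted p = 1.000).

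The genes nearest to each of these in pattern were found by the root mean square (RMS) difference of log2 CPM, centred per gene, over the 12 libraries. Msr1 lay closest to Pcdh7 (RMS 0.0922) and Gramd1b (0.104), Gas6 to Ppp3r1 (0.0799) and Itfg3 (0.0880), and Mertk to Numbl (0.218) and Mir22hg (0.223). The RMS of the pattern itself was 0.47 for Msr1, 0.27 for Gas6 and 0.68 for Mertk, so Mertk was the least closely matched of the 3 in absolute terms. Numbl, for example, differed by -0.91 for IC against Ova in DMSO and by 0.65 and 1.30 for iBET against DMSO with Ova and IC, beside Mertk values of -0.95, 0.77 and 1.25. For IC against Ova in iBET it differed by -0.26, beside -0.47 for Mertk. For Axl, Cd36, Mrc1, Stab1, Scarb1, Lrp1 and Mfge8, whose own RMS was 0.13 to 0.25, the nearest genes were Lipa (0.0649), Degs1 (0.0861), Cyhr1 (0.0799), Gnb2 (0.0825), Commd10 (0.0838), Emc8 (0.0731) and Inpp5b (0.110).

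Of 27 other genes that recognise or bridge to apoptotic cells 21 were tested, and iBET lowered 5 and raised 1 with Ova and lowered 6 and raised 1 with IC. The share called was 28.6% with Ova and 33.3% with IC, near the 31.3% and 34.8% of all genes. By direction, 14.2% of all genes were lower and 17.1% higher with Ova, and 15.8% were lower and 19% higher with IC. The list median was -0.029 with Ova and -0.048 with IC. Havcr2, which encodes the phosphatidylserine receptor TIM-3, fell from 119.5 ± 3.25 to 30.1 ± 0.936 CPM with Ova (log2 -1.99, adjusted p = 1.14e-07) and from 109 ± 5.27 to 28.9 ± 1.77 CPM with IC (-1.91, adjusted p = 6.64e-08). Thbs1, the matrix protein thrombospondin 1 that bridges apoptotic cells to CD36, fell with Ova (log2 -1.31, adjusted p = 0.0281) and with IC (-1.91, adjusted p = 0.00351). Its call with Ova was lost without a filter on low counts (adjusted p = 0.0823) and with 1 surrogate variable (0.0530). Calr, calreticulin, an endoplasmic reticulum chaperone that binds LRP1 when at the cell surface, was the only riser, from 3152 ± 229.9 to 5496 ± 564 CPM with Ova (0.80, adjusted p = 2.88e-04) and from 3229 ± 172 to 4806 ± 508 CPM with IC (0.57, adjusted p = 0.00235).

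Among 17 other scavenger receptors 9 were tested, and iBET lowered 2 with each stimulus, a share of 22.2% beside the 14.2% (Ova) and 15.8% (IC) of all genes that were lower. It raised 0 of the 9, where 17.1% and 19% of all genes were higher. The 2 that fell were Cxcl16, a membrane-bound chemokine that also binds oxidised LDL (213 ± 37.6 to 113 ± 12.1 CPM with Ova, 234 ± 29.9 to 127 ± 19.4 CPM with IC), and Cd207, langerin (7.18 ± 4.46 to 1.30 ± 0.113 CPM with Ova, 7.79 ± 3.12 to 2.30 ± 0.634 CPM with IC). Olr1, the oxidised LDL receptor LOX-1, was the only gene of this list that IC raised, from 1.43 ± 0.557 to 5.03 ± 1.13 CPM in DMSO (log2 2.03, adjusted p = 0.0310). In iBET it went from 1.15 ± 0.607 to 5.38 ± 1.53 CPM (2.18, adjusted p = 0.0220). Its level was low, and it was not among the genes tested when at least 10 counts were required in every library. The IC call in DMSO was also lost with the compared groups fitted alone. Marco, the scavenger receptor most similar to Msr1, had at most 8 counts in any library.

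In the LDL receptor family and its chaperones, 12 of 17 genes were tested and 4 rose with iBET with Ova, while with IC 3 rose and 1 fell. The share called, 33.3% with each stimulus, was near that of all genes (31.3% and 34.8%). Of all genes, 17.1% were higher and 14.2% lower with Ova, and 19% were higher and 15.8% lower with IC. The list medians were 0.30 and 0.25, above the median of all genes. Lrp6, the WNT co-receptor, rose from 93.1 ± 6.31 to 149 ± 9.04 CPM with Ova and from 94.1 ± 7.68 to 146 ± 8.05 CPM with IC (log2 0.68 and 0.64). Mylip, which encodes the ubiquitin ligase IDOL that marks LDL receptors for degradation, rose by 0.66 with Ova and 0.71 with IC. Sort1, the sorting receptor sortilin, rose by 0.53 and 0.68, and Lrp4 fell by 0.54 with IC (adjusted p = 0.0163). Among engulfment signalling and cargo handling genes, 22 of 24 were tested. With Ova iBET raised 3 and lowered 1, and with IC it raised 4 and lowered 2. These shares of 18.2% and 27.3% were below the 31.3% and 34.8% of all genes. Elmo2, an adaptor that activates RAC1 with DOCK1, rose from 37.7 ± 2.52 to 57.1 ± 5.57 CPM with Ova and from 32.2 ± 0.754 to 58.0 ± 1.84 CPM with IC (0.59 and 0.85), Ucp2, a mitochondrial carrier, rose by 0.56 and 0.53, and Vav3, a RAC exchange factor, fell (-0.78 and -0.70). Slc7a11, the cystine transporter, rose with IC in DMSO from 2.90 ± 0.457 to 9.24 ± 2.44 CPM (1.69, adjusted p = 0.0331) and fell by 1.37 with iBET in IC (adjusted p = 0.00451). The Slc7a11 rise with IC was also lost with the compared groups fitted alone, and the gene was not tested when at least 10 counts were required in every library. With the compared groups fitted alone, the Ucp2 call with Ova was lost as well (adjusted p = 0.0563).

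**Figure D4:**
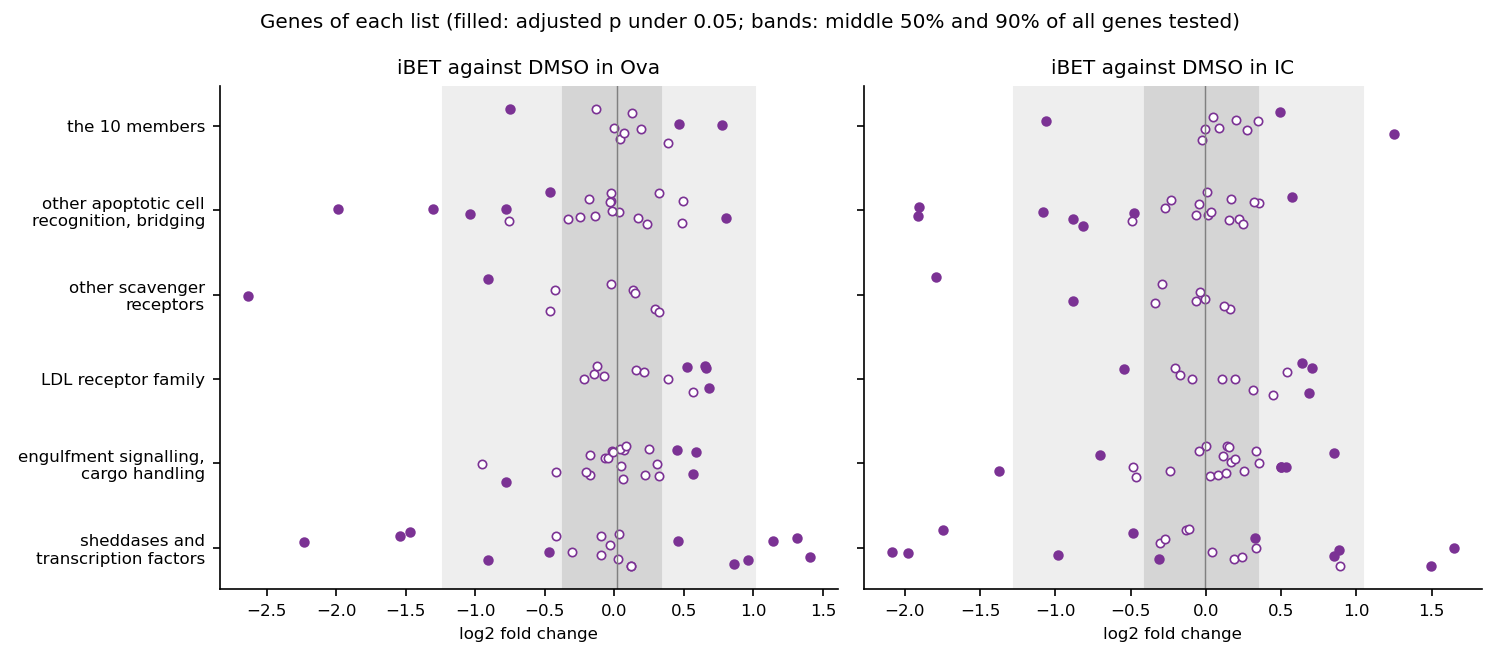
Log2 fold change for iBET against DMSO with Ova (left) and with IC (right) of each tested gene in the 6 lists, filled where the adjusted p was under 0.05, over bands that hold the middle 50% and 90% of all genes tested. The 10 members span -0.75 to 0.77 with Ova and -1.06 to 1.25 with IC, and the transcription factor list reaches from -2.23 to 1.41 and from -2.09 to 1.65.

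The transcription factors and sheddases known for these genes held the largest share of called genes among the 5 lists outside the members. Of 21 genes 20 were tested, and iBET raised 6 and lowered 5 with Ova and raised 5 and lowered 6 with IC. The share called was 55.0% in each, beside 31.3% and 34.8% of all genes. Since all 5 lists were chosen with earlier results of these data known, this share is a description only. Pparg, the nuclear receptor known to drive Cd36, fell from 66.4 ± 9.55 to 14.0 ± 2.99 CPM with Ova (log2 -2.23, adjusted p = 1.39e-05) and from 59.1 ± 10.9 to 13.7 ± 3.54 CPM with IC (-2.09, adjusted p = 1.74e-05), beside Cd36 differences of 0.042 and -0.026. Nr1h3 encodes LXR-alpha, an oxysterol receptor known to induce Mertk. Under iBET it fell from 23.0 ± 4.20 to 5.74 ± 1.55 CPM with IC (-1.98, adjusted p = 2.10e-04). With Ova it fell from 13 ± 4.98 to 4.82 ± 1.24 CPM (-1.47, adjusted p = 0.00260). The Mertk differences beside these were 1.25 with IC and 0.77 with Ova. Nr1h2, the gene of the other LXR, LXR-beta, was called higher under iBET with Ova (0.46) and with IC (0.32). It ranged from 56.2 to 88.8 CPM over the 12 libraries, against 3.61 to 27.1 CPM for Nr1h3. Any part of Pparg, Nr1h3 or Nr1h2 in the levels of Cd36 or Mertk was not tested. Spi1, which encodes the macrophage factor PU.1, fell from 192 ± 24.7 to 66.0 ± 3.26 CPM with Ova (-1.54) and from 241 ± 10.8 to 71.7 ± 7.81 CPM with IC (-1.75). In the other direction, the nuclear receptor gene Ppard rose from 3.92 ± 0.940 to 10.3 ± 1.36 CPM (1.41) and from 3.57 ± 0.260 to 11.2 ± 0.504 CPM (1.65). Cebpb, an activation-induced factor, was the only gene of this list that IC raised in DMSO (80.6 ± 14.3 to 133 ± 18.8 CPM, 0.71, adjusted p = 0.0279), a call that was lost with the compared groups fitted alone. For the interaction, edgeR and DESeq2 called 0 of the 83 tested genes of the 5 context lists, and 0 had an unadjusted p under 0.05.

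Leaving out 1 library or 1 mouse at a time gave 15 fits, described here for these context genes other than Nr1h2. The iBET calls held in all 15 with both stimuli for Havcr2, Lrp6, Elmo2, Pparg, Spi1 and Ppard, for Calr with Ova, and for Cxcl16, Nr1h3 and Slc7a11 with IC. They were lost only without mouse B for Cxcl16 (adjusted p = 0.0510) and Nr1h3 (0.0971) with Ova, for Vav3 with Ova (0.0733) and IC (0.0909), and for Calr (0.0730), Thbs1 (0.0927), Mylip (0.163) and Sort1 (0.0646) with IC. Cd207 was lost without mouse B with Ova (0.0633), and with IC without mouse B (0.138) or mouse C (0.0533). The remaining calls were more fragile: with Ova, Thbs1 and Ucp2 were lost in 6 of 15 fits, Mylip in 5 and Sort1 in 7, and with IC, Lrp4 was lost in 5 and Ucp2 in 7. The IC calls in DMSO were lost in 7 fits for Cebpb, 8 for Olr1 and 9 for Slc7a11, and the Olr1 call in iBET in 6. No fit turned the direction of any of these calls.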

How the data were processed

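RNA of 12 BMDM cultures (4 groups, mice A, B and C in each) was sequenced after SMARTer Universal Pico Input library preparation. The study's methods name a stranded SMARTer pico input kit for total RNA. The authors trimmed reads (Trim Galore), aligned them to mm10 (HISAT2) and deposited raw counts per gene symbol (featureCounts). The annotation and use of strand in counting are not given in the sources used here. A deposited normalized table was not used. The genes and context lists were chosen with earlier results of these data known.

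Counts were fitted in edgeR 4.0.16 (TMM, filterByExpr minimum count 10, 1 term per group, robust quasi-likelihood) for 5 contrasts, with Benjamini-Hochberg adjustment over 11468 genes. Levels between genes were divided by exon length (GENCODE vM21). Named genes were all 10 members, in each context list the 2 largest rises and 2 largest falls among genes called for iBET, every list gene called for IC or the interaction, and the 2 nearest genes by pattern among those averaging at least 50 counts. A gene that this rule names is not reported here. Tyro3, Pros1, Marco, Zbtb46, Kdr and Nr1h2 were named after their values were seen. Alternatives were DESeq2 1.42.0, its size factors, 2 other filters, mouse as a replicate block, 1 surrogate variable (sva 3.50.0), the compared groups alone, removal of Rn45s, and leaving out each library or mouse. The labels pair libraries by animal, and deviations from group means correlated with a median of 0.26 in 18 same-mouse pairs and -0.13 in 36 other pairs.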

Additional observations from a re-analysis of the deposited data

How the results depend on the processing

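The fall of Msr1 and the rise of Mertk with iBET in IC were called in every fit. The number of members called was 3 for iBET against DMSO with Ova and fell to 1 with the compared groups fitted alone, where 0.72 for Mertk and 0.42 for Gas6 no longer passed. It ranged from 1 to 3 over the leave-outs with Ova and from 2 to 4 with IC. For IC against Ova in DMSO, 0 members were called, and 1 (Mertk) with DESeq2, with the replicate block and with the replicate block without the DMSO_Ova library of mouse A. The leave-outs gave 0 for both IC comparisons and the interaction. The replicate block also called Mrc1 in IC (0.27), as did 1 surrogate variable (0.30), and it changed no other call of a member. Sign changes among the other alternatives occurred only for differences that were not called. The replicate block without the DMSO_Ova library of mouse A, chosen after seeing the data, called the same members as the replicate block. It turned Cd36 (-0.077), Scarb1 (-0.08) and Axl (-0.05) for IC against Ova in DMSO, Cd36 (0.019) and Gas6 (0.0096) for IC against Ova in iBET, Cd36 (-0.14) and Scarb1 (-0.032) for iBET with Ova, and the Cd36 interaction (0.096). For IC against Ova in iBET, Cd36 was 0.0037 with DESeq2 size factors, 0.0032 with DESeq2, 0.0074 without a filter, 0.0033 with the stricter filter, 0.0069 with the replicate block, 0.0097 with the compared groups alone and 0.01 without Rn45s. Gas6 was 0.0034, 0.0031, 0.0084, 0.0029, 5.8e-04, 0.0096 and 0.01 in the same fits and 0.011 with 1 surrogate variable, where Mrc1 was 0.0017. For iBET against DMSO with Ova, Cd36 was -0.0058 with the compared groups alone and Stab1 was 0.011 with the replicate block. With IC, Axl was 0.0038 without a filter and Stab1 was -0.014 with 1 surrogate variable.

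Over the leave-outs, uncalled differences that crossed 0 had these ranges. For IC against Ova in DMSO they were -0.072 to 0.12 for Axl, -0.048 to 0.21 for Cd36, -0.11 to 0.25 for Scarb1, -0.091 to 0.014 for Gas6 and -0.24 to 0.095 for Mfge8. For IC against Ova in iBET they were -0.15 to 0.12 for Cd36, -0.083 to 0.02 for Msr1, -0.10 to 0.06 for Mrc1, -0.13 to 0.042 for Lrp1, -0.11 to 0.13 for Gas6 and -0.19 to 0.011 for Mfge8. For iBET with Ova they were -0.20 to 0.19 for Cd36, -0.14 to 0.058 for Stab1 and -0.088 to 0.30 for Scarb1, and with IC -0.076 to 0.087 for Axl, -0.11 to 0.062 for Cd36, -0.14 to 0.15 for Stab1 and -0.006 to 0.15 for Lrp1. For the interaction they were -0.22 to 0.089 for Cd36, -0.10 to 0.17 for Stab1, -0.096 to 0.25 for Scarb1, -0.079 to 0.16 for Gas6 and -0.27 to 0.20 for Mfge8. The cause of these changes was not tested. Mertk and Mfge8 had the lowest counts of the members, with as few as 31 and 23 in a library.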
